A study of Rattus norvegicus with 24 samples.

Results

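Jiaji pretreatment was set directly against Neiguan pretreatment in injured rat hearts, over the 8 arrays titled for these acupoints, 4 Jiaji and 4 Neiguan, of 24 arrays in the series. Jiaji points lie beside the spine and Neiguan lies on the inner forearm. Rats of both groups received acupuncture at their point for 7 days and then myocardial ischaemia-reperfusion injury, made by tying off the anterior descending branch of the left coronary artery. The IRI group had the same ligation without acupuncture, and the sham group is named in the labels without ligation or acupuncture. Each group held 4 rats, 2 females and 2 males. The sources used here do not state strain, age, reperfusion time or collection time. The comparison asks whether the acupoint used before the same injury matters for the transcriptome of the myocardium. Beyond sex, treatment and a number within the group, the labels say nothing about the single animals, so the p-values rest on the spread between arrays of a group.

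In the heart, oxygen and fuel supply, contraction and the response to injury are carried by different cells: cardiomyocytes hold the contractile proteins and the mitochondria, macrophages clear damaged tissue, and the blood left in the vessels adds the RNA of reticulocytes and platelets. Ischaemia and reperfusion are known to bring early transcription factors, cytokines and, later, infiltrating leukocytes. The adrenergic nerves and the clock genes of the heart also take part in its daily and stress-related changes of rate and metabolism.

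Levels below are log2 of the array signal relative to the 75th percentile of the same array, so a level of 0 is that percentile, and differences are Jiaji minus Neiguan on this log2 scale. Well above background were 82.8 ± 1.57% of probes on Jiaji arrays and 80.1 ± 3.29% on Neiguan arrays (SD, n = 4 each), and the number of arrays limits the precision. Across genes, arrays correlated at r of 0.981 to 0.990 within Jiaji, 0.985 to 0.992 within Neiguan and 0.981 to 0.991 between them. For 7 of 8 arrays the closest of the other 7 belonged to the same group; the exception was Jiaji replicate 4, closest to Neiguan replicate 3. Jiaji replicate 1 lay farthest out on the first principal component of the 8 arrays, at -41.0 against -15.0 to 6.50 for the other Jiaji arrays and -0.92 to 24.1 for Neiguan. Eif2s3, an X-linked translation factor gene, separated the labelled sexes on all 24 arrays, at 2.78 to 3.23 in 12 females and 2.07 to 2.43 in 12 males. Jiaji and Neiguan arrays were scanned on the same day. Each group had 1 scan time of its own, taken here as 1 slide, so slide and acupoint cannot be told apart. IRI and sham arrays were scanned on another day.

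No gene passed the test between Jiaji and Neiguan. In limma's moderated test with Benjamini-Hochberg adjustment, 0 of 12894 genes (percent called 0) reached an adjusted p of 0.05, and the smallest adjusted p was 0.179. At an unadjusted p under 0.05 there were 1505 genes (11.7%), of which 1074 (8.33%) were higher and 431 (3.34%) lower in Jiaji. All 4 Jiaji arrays lay above all 4 Neiguan arrays for 738 genes (5.72%) and below them for 184 (1.43%). The 95% interval of the difference lay within plus or minus 1 for 11053 genes (85.7%) and within plus or minus 0.5 for 5078 (39.4%). Differences above 1 in size were estimated for 110 genes (0.853%). In simulated data of the same size, 65% of 100 genes changed by 1 and 16% of 100 genes changed by 0.5 were called. The simulated noise was independent for each gene, without effects of sex, slide or brightness, so these rates may not hold for the real arrays. Settings other than the one used here called up to 6 genes, which are named below with the faint genes.

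The excess of genes higher in Jiaji depended on the scaling and lay among faint genes. In 4 classes of genes ordered from faint to bright, the median difference was 0.24, 0.12, 0.02 and -0.08, and the unadjusted counts were 526 higher and 18 lower in the faintest class but 40 higher and 230 lower in the brightest. After quantile normalization between arrays, the same medians were 0.01, -0.00, -0.00 and -0.03, and over all genes 541 were higher and 702 lower. The authors' own values gave 544 higher and 703 lower, normexp with quantile normalization 589 and 683, and median scaling 444 and 1259. The median difference over all genes was 0.05 as scaled here, -0.01 after quantile normalization and -0.08 after median scaling. As scaled here, 18 of 3224 genes were lower in the faintest class and 230 of 3224 in the brightest. The shares of all genes set beside the gene lists below are not matched for brightness. Smell, pheromone and taste receptor genes, which the heart expresses weakly if at all, showed the same pattern, with 140 of 574 higher and 2 lower at unadjusted p under 0.05 and a median of 0.31.

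**Figure D1:**
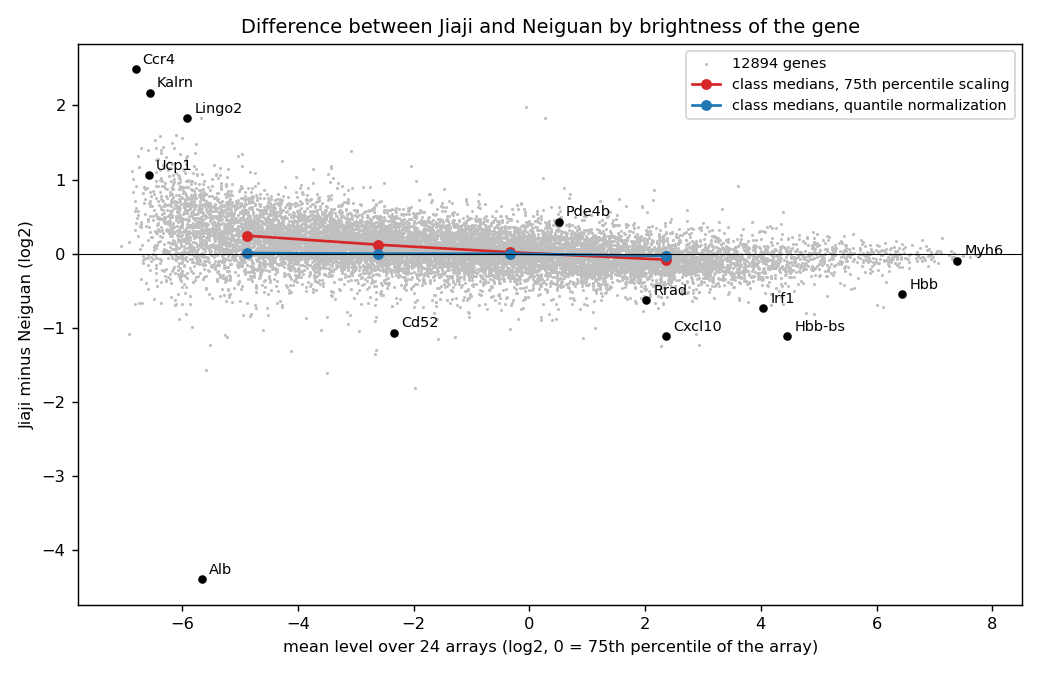
Each grey point is 1 of 12894 genes, with its mean level over 24 arrays on the x axis (log2, 0 = 75th percentile of the array) and the Jiaji minus Neiguan difference on the y axis (log2); lines join the median difference of 4 brightness classes under both scalings, and black points are named genes. The class medians slope from 0.24 to -0.08 with 75th percentile scaling and stay between 0.01 and -0.03 after quantile normalization.

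Genes of red cells and platelets had the lowest median of the 43 gene lists examined. Of 13 tested members, 9 were lower and 0 higher in Jiaji at unadjusted p under 0.05, against 3.34% of all genes lower, and 0 were called. The median difference was -0.72, beside 0.05 over all genes, and it stayed between -0.86 and -0.53 under the 20 other settings. Hba-a1, an alpha-globin gene, had levels of 6.12, 5.16, 4.77 and 5.99 on Jiaji arrays against 6.14, 6.28, 6.47 and 6.03 on Neiguan arrays. Jiaji replicates 2 and 3 were low and replicates 1 and 4 were near the Neiguan range, so the groups overlapped, and the difference was -0.72 ± 0.21 (SE; limma adjusted p = 0.275; 95% interval -1.15 to -0.28). The beta-globin gene Hbb-bs had 4.10, 3.38, 2.50 and 3.97 in Jiaji against 4.63, 4.80, 4.96 and 4.04 in Neiguan, a difference of -1.12 ± 0.34 (SE; adjusted p = 0.309). The other globin genes followed, with differences of -0.55 for Hbb, -0.69 for Hbb-b1 and -0.80 for Hbe2. The beta-globin genes Hbb, Hbb-b1 and Hbb-bs are close copies whose probes may share signal, so their single values are uncertain and are not independent of each other.

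Red cell and platelet genes outside the globin family were mostly lower in Jiaji, and over the whole list 11 of 13 differences were below 0. Alas2, which makes the first step of haem synthesis in red cells, had a difference of -0.60, and Ahsp, the chaperone of alpha-globin, -0.73. The platelet genes Pf4, a chemokine of platelet granules, and Gp1bb, a part of the von Willebrand factor receptor, had -0.90 and -0.74. The differences above 0 were 0.15 for Epb42, a protein of the red cell membrane skeleton, and 0.07 for Gp9, another part of the von Willebrand factor receptor. The levels of the 13 red cell and platelet genes were also summed, on a linear scale where 1 is the 75th percentile. The sum was 110 to 258.2 in Jiaji and 257.6 to 351 in Neiguan, so the groups overlapped. Jiaji replicates 1 and 4 stood at 258.2 and 253.9. IRI had 265 to 401 and sham 210 to 360. In these bulk samples fewer cells of a type and less RNA per cell cannot be told apart.

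The lowest globin levels of Jiaji lay in its 2 females. For all 5 globin genes both Jiaji females lay below both Jiaji males and below all 4 Neiguan arrays. Both females also lay below both males for 4 of the 5 genes in IRI and all 5 in sham, against 0 of 5 in Neiguan, so the order of the sexes was not particular to Jiaji. Fitted within sex, the differences of the globin genes ranged from -1.48 to -0.89 in females and from -0.76 to -0.20 in males, with 2 rats of each sex per group. The interaction with sex did not pass for any of them (limma adjusted p = 0.982 for Hba-a1, with an interaction of -0.94 ± 0.40, SE). For Alas2 the interaction was -1.54 ± 0.46 (SE; adjusted p = 0.982), from -1.37 in females and 0.17 in males.

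The promoters of 4 of these genes are shown because the genes lay low together; they are the 250 bases before the start, from RefSeq on build GRCr8, 5′ to 3′ on the gene's strand, with capitals marking the GATA motif GATAA, the box CACCC and the box CCAAT on either strand, all known from globin promoters.
Hba-a1 (chr10:15842581-15842830, minus strand): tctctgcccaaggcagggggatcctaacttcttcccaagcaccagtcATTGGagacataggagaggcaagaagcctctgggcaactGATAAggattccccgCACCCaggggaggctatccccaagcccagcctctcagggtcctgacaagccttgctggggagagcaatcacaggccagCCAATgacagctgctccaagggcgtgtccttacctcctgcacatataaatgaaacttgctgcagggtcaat
Hbb (chr1:167663722-167663971, minus strand): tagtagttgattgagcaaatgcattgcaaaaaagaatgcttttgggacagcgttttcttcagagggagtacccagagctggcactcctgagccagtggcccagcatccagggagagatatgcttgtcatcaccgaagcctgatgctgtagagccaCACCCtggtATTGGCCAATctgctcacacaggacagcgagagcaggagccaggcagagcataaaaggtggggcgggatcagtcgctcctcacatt
Hbb-bs (chr1:167631631-167631880, minus strand): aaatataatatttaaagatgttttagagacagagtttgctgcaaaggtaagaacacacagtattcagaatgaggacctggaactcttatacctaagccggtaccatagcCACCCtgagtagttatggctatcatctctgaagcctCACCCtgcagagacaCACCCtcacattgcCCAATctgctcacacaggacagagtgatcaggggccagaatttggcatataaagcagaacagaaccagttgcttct
Alas2 (chrX:22895200-22895449, plus strand): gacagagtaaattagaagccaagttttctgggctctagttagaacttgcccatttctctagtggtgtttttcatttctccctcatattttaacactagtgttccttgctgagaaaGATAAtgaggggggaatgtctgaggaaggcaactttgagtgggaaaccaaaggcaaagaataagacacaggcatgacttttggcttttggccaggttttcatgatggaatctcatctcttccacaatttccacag
Among 33469 promoters of this length in the table, 23.5% hold the GATA motif, 49.2% the CACCC box and 34.0% the CCAAT box. Hba-a1 held 1 GATA motif, 1 CACCC box and 2 CCAAT boxes. Hbb held 1 CACCC box and 2 CCAAT boxes, Hbb-bs 3 CACCC boxes and 1 CCAAT box, and Alas2 1 GATA motif. These are letter matches in the window and say nothing of binding.

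**Figure D2:**
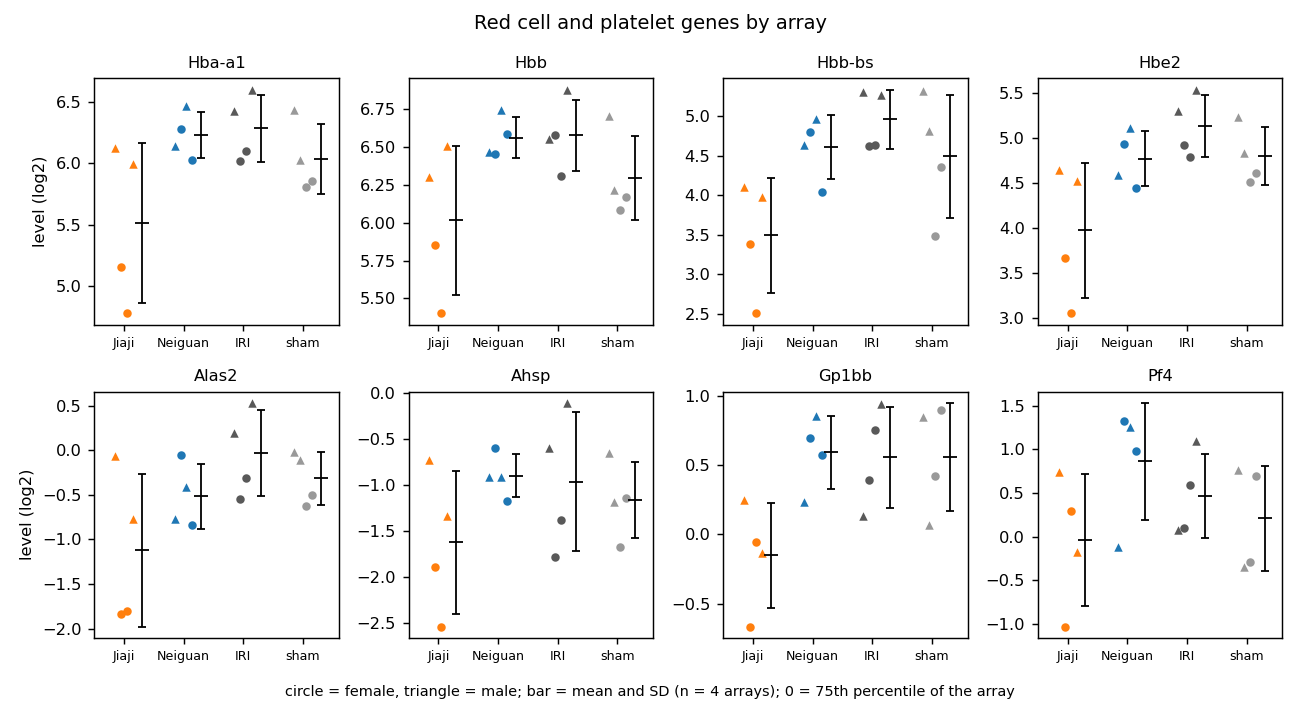
Levels (log2, 0 = 75th percentile of the array) of 8 red cell and platelet genes on each array, with circles for females and triangles for males, and mean with SD beside them (n = 4). In Jiaji the females of Hba-a1 lie at 5.16 and 4.77 and the males at 6.12 and 5.99.

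Macrophage genes had the second lowest median. Of 16 tested monocyte and macrophage markers, 6 were lower (37.5%, beside 3.34% of all genes) and 1 higher (6.25%, beside 8.33%) in Jiaji at unadjusted p under 0.05, 0 were called, and 13 of 16 differences were below 0; the median was -0.54, between -0.67 and -0.38 under the other settings. Their summed level was 58.2 to 103 in Jiaji and 91.1 to 137 in Neiguan, beside 56.8 to 119 in IRI and 64.4 to 105 in sham, so the Neiguan arrays reached above the others while overlapping them. Cd14, the co-receptor for bacterial lipopolysaccharide, had -0.57, -0.78, -0.61 and -0.12 in Jiaji against 0.12, 0.33, -0.13 and 0.38 in Neiguan, a difference of -0.69 ± 0.23 (SE; adjusted p = 0.355). The lysosomal protein gene Cd68 had -0.68, the high-affinity Fc receptor gene Fcgr1a -0.79, the complement genes C1qb and C1qc -0.60 and -0.64, and Aif1 -0.54. Of the 16 markers, 3 had a difference above 0, up to 0.28. Csf1r, the receptor for the macrophage growth factor, went in that direction, at -0.79 to -0.53 in Jiaji and -0.96 to -0.82 in Neiguan, without overlap. Its difference was 0.22 (adjusted p = 0.427). The leukocyte surface gene Cd52 had -2.45, -3.53, -4.18 and -2.73 in Jiaji against -2.24, -2.05, -1.80 and -2.53 in Neiguan, a difference of -1.07 ± 0.28 (SE; adjusted p = 0.233). Here too Jiaji replicates 2 and 3 were the lowest. The part of cell numbers in these values was not tested.

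Most interferon genes had a difference below 0, with wide errors. Of 27 tested members 23 had a difference below 0, with a median of -0.38 (-0.61 to -0.19 under other settings); 2 were lower (7.41%, beside 3.34% of all genes) and 0 higher at unadjusted p under 0.05. Irf1, a transcription factor induced by interferon gamma, had 3.81, 4.31, 3.89 and 3.55 in Jiaji against 4.44, 4.61, 4.88 and 4.59 in Neiguan. The groups did not overlap, and the difference was -0.74 ± 0.26 (SE; adjusted p = 0.368), although another probe of the gene gave -0.23. The guanylate binding protein gene Gbp2 had -0.68. The chemokine gene Cxcl10 had 2.73, 3.26, 1.24 and 2.47 in Jiaji against 4.55, 2.93, 3.88 and 2.82 in Neiguan, a difference of -1.12 ± 0.64 (SE; adjusted p = 0.47) whose interval reached 0.22. Of 12 antigen presentation genes 11 had a difference below 0, with a median of -0.22, and 0 passed unadjusted.

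**Figure D3:**
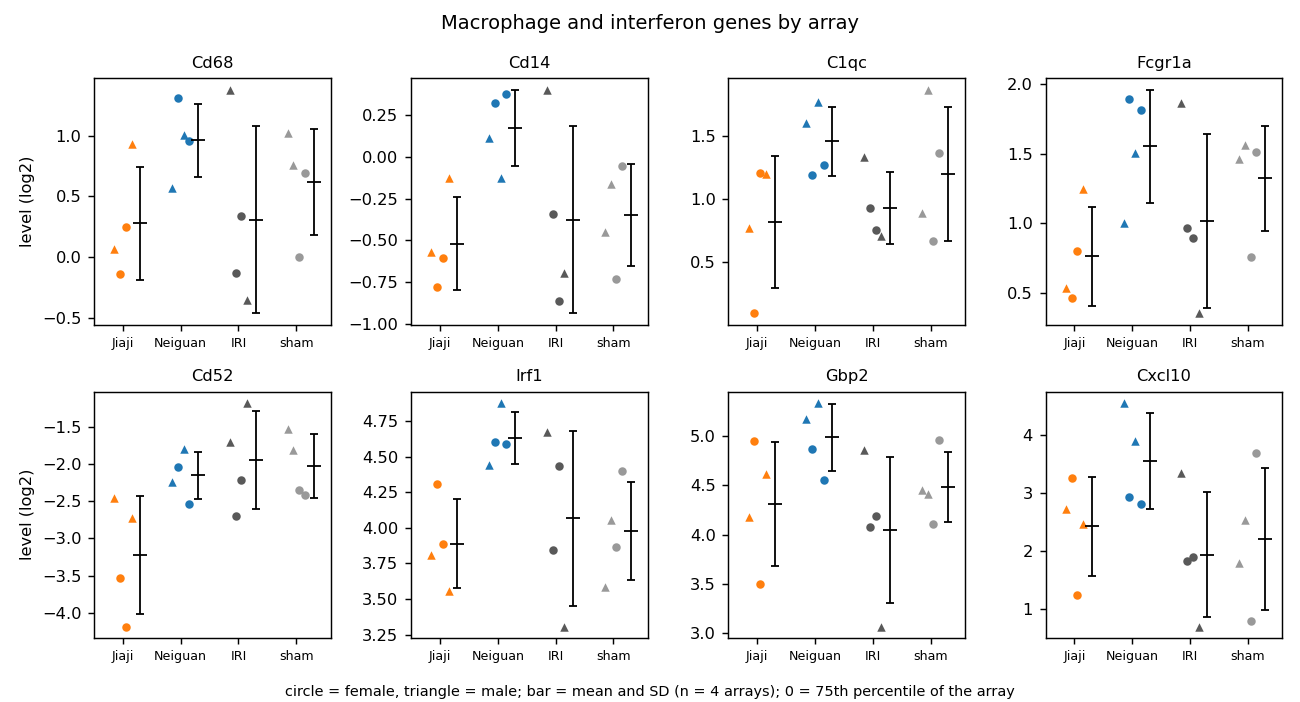
Levels (log2, 0 = 75th percentile of the array) of 5 leukocyte genes and 3 interferon genes on each array, with circles for females and triangles for males, and mean with SD (n = 4). Irf1 lies between 3.55 and 4.31 in Jiaji and between 4.44 and 4.88 in Neiguan, while Cxcl10 spreads widely in both.

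Cytokine and early response genes gave mixed values. Among 22 inflammatory genes, with a median of -0.16, 2 were lower (9.09%, beside 3.34% of all genes) and 0 higher at unadjusted p under 0.05. These were Il1b (-0.76 ± 0.35, SE; adjusted p = 0.423) and Il18 (-0.80 ± 0.34, SE; adjusted p = 0.403), cytokines that the inflammasome matures. The nitric oxide synthase gene Nos2 had a difference of -0.11 (95% interval -0.48 to 0.26), with Jiaji at 1.01 and Neiguan at 1.12 above IRI, both past the threshold against IRI (adjusted p = 0.000687 and 0.000416). Socs3, a feedback inhibitor of cytokine receptors, and Il10, an anti-inflammatory cytokine gene, stood at 0.04 (-0.30 to 0.38) and 0.05 (-0.35 to 0.45), and both turned sign under quantile normalization. Il6 had -0.29, with an interval from -1.41 to 0.84 that allows either direction. Of 24 immediate early genes 20 were below 0, with a median of -0.26. Jund, a member of the AP-1 factors, had -0.58 (adjusted p = 0.406) and Fos -0.67 (adjusted p = 0.477).

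Cardiomyocyte markers and oxidative phosphorylation genes were bounded closely, fatty acid oxidation and sarcomere genes less so. The 11 tested cardiomyocyte markers, all well above background on all 8 arrays, had a median difference of -0.05, and 10 of them had an interval within plus or minus 0.5. For 36 oxidative phosphorylation genes the median was -0.02, 0 passed unadjusted, and 34 intervals lay within plus or minus 0.5. Fatty acid oxidation genes numbering 26 had a median of 0.05, with 25 intervals within plus or minus 1 and 16 within plus or minus 0.5. For 14 sarcomere protein genes the median was 0.06, with 12 intervals within plus or minus 1 and 10 within plus or minus 0.5. The highest differences in these 2 lists were 0.65 and 0.56. Myh6, the alpha-myosin heavy chain of the rodent ventricle, had 7.25, 7.49, 7.43 and 7.47 in Jiaji against 7.54, 7.29, 7.71 and 7.49 in Neiguan, a difference of -0.10 (-0.41 to 0.22). Myh7, the slower beta chain, had 0.05 (-0.25 to 0.34). The natriuretic peptide gene Nppa was spread from 1.66 to 3.95 within Jiaji and from 2.32 to 4.04 within Neiguan, so its difference of -0.14 had an interval from -1.46 to 1.18. Nppb had -0.28 (-0.77 to 0.21), the fatty acid transporter gene Cd36 0.14 (-0.20 to 0.47) and the pyruvate dehydrogenase kinase gene Pdk4 0.39 (-0.44 to 1.22).

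Rrad and Pde4b, which act on calcium current and cyclic AMP, separated the groups without overlap. So did 1.43% of all genes lower and 5.72% higher in Jiaji, and both were picked after their values were seen. Of 28 ion channel and calcium handling genes, with a median of -0.03, 0 were lower and 1 higher at unadjusted p under 0.05. All 28 intervals lay within plus or minus 1, and 0 of these genes separated the groups. Rrad, a small GTPase that restrains the L-type calcium channel, had 1.57, 1.55, 1.75 and 1.43 in Jiaji against 2.11, 2.32, 2.22 and 2.17 in Neiguan. Every Jiaji array lay below every Neiguan array, and IRI averaged 1.90, between them; the difference was -0.63 ± 0.15 (SE; adjusted p = 0.221). Pde4b, a phosphodiesterase that breaks down cyclic AMP after adrenergic stimulation, had 0.89, 0.63, 0.65 and 0.53 in Jiaji against 0.24, 0.38, 0.06 and 0.30 in Neiguan, a difference of 0.43 ± 0.11 (SE; adjusted p = 0.227). Plvap, a protein of fenestrated and injured endothelium, had -0.63 (adjusted p = 0.221) and Pthlh, a peptide that relaxes vessels, -0.75 (adjusted p = 0.233).

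Several glycolysis genes stood lower in Jiaji, while the list's median was -0.08. Of 29 genes, 5 were lower and 1 higher at unadjusted p under 0.05 (17.2% lower, beside 3.34% of all genes). Pfkp, the platelet form of phosphofructokinase, had 2.02, 2.67, 2.28 and 2.42 in Jiaji against 2.86, 2.85, 3.02 and 2.80 in Neiguan, without overlap, and the difference was -0.54 ± 0.17 (SE; adjusted p = 0.329). Hexokinase Hk1 had -0.42, phosphoglycerate mutase Pgam1 -0.39, enolase Eno1 -0.31 and the lactate exporter Slc16a3 -0.73, each at unadjusted p under 0.05 only. Pfkfb3, which makes the activator of phosphofructokinase, went the other way at 0.35. Pfkp, Eno1 and Slc16a3 are also abundant in blood cells. The red cell and platelet sum reached lower values in Jiaji, though the groups overlapped, and its part in these levels was not tested.

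**Figure D4:**
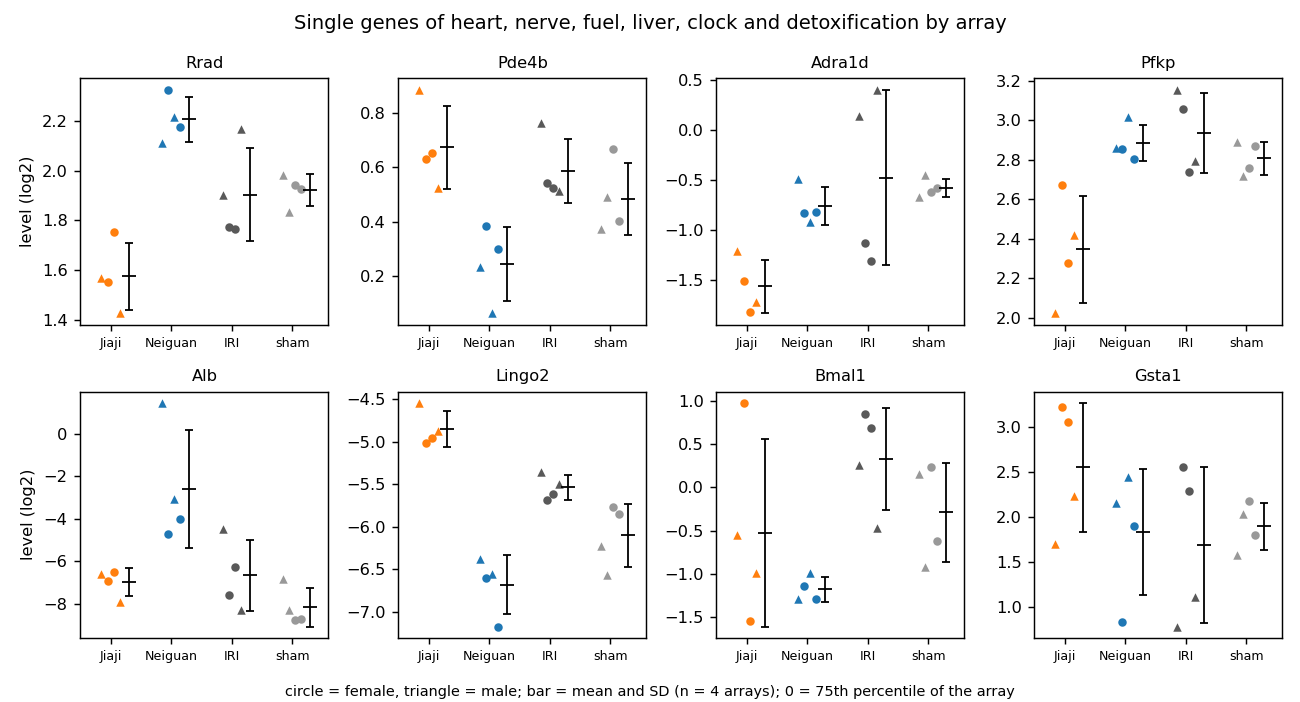
Levels (log2, 0 = 75th percentile of the array) of 8 single genes on each array, with circles for females and triangles for males, and mean with SD (n = 4). Rrad, Adra1d and Pfkp are lower and Pde4b and Lingo2 higher on all Jiaji arrays than on all Neiguan arrays, while Alb is high in Neiguan and Bmal1 is high in 1 Jiaji rat.

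Genes of the sympathetic nerve and of nerve growth gave mixed differences. Of 27 adrenergic and cholinergic genes, 24 had an interval within plus or minus 1 and 9 within plus or minus 0.5, and 2 were lower at unadjusted p under 0.05 (7.41%, beside 3.34% of all genes): Adra1d, an alpha-1 receptor, and Adcy5, the main cardiac adenylyl cyclase, at -0.80 (adjusted p = 0.412) and -0.33 (adjusted p = 0.394). Adra1d had -1.21, -1.51, -1.82 and -1.72 in Jiaji against -0.49, -0.83, -0.92 and -0.82 in Neiguan, without overlap. The beta-1 receptor gene Adrb1 had 0.21 (-0.07 to 0.50) and the noradrenaline transporter gene Slc6a2 0.14 (-0.09 to 0.37). Both acupoint groups had Slc6a2 above IRI, Jiaji by 0.84 (limma adjusted p = 3.07e-05) and Neiguan by 0.71 (adjusted p = 0.000356). Of 16 neurotrophin and neuropeptide genes, 11 had an interval within plus or minus 1 and 5 within plus or minus 0.5, with 2 higher at unadjusted p under 0.05 (12.5%, beside 8.33% of all genes) and a median of 0.15. Of 10 neuron and Schwann cell markers, 9 had a difference above 0, with a median of 0.27 (0.03 to 0.34 under the other settings). At unadjusted p under 0.05, 1 was higher (10%, beside 8.33% of all genes). Without overlap, 2 lay higher in Jiaji, beside 5.72% of all genes. Bdnf, a neurotrophin, and Penk, the enkephalin precursor, had 0.74 and 0.91, and the receptor gene Ntrk2 had 0.03 (-0.40 to 0.45), with Jiaji at -1.17 and Neiguan at -1.19 against IRI (adjusted p = 0.000667 and 0.000821). P2rx4, an ATP-gated channel, had 0.60, whereas P2rx7 was not well above background on any of the 8 arrays.

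Clock genes did not pass the test between the acupoints. Bmal1, the core activator of the clock, had -0.55, 0.97, -1.54 and -0.99 in Jiaji against -1.29, -1.14, -0.98 and -1.29 in Neiguan; Jiaji replicate 2 alone was high, and the difference was 0.65 (-0.13 to 1.42; limma adjusted p = 0.47). Against IRI, Neiguan was at -1.50 (adjusted p = 0.0182) and Jiaji at -0.85 (adjusted p = 0.166), with the same IRI arrays in both. Its partner Npas2 had 0.40 (-0.15 to 0.95). The repressor genes Per1, Per2 and Per3 had 0.14, -0.48 and -0.20, of which Per2 passed only unadjusted and Per1 changed sign under quantile normalization. The labels do not state the time of day at collection.

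The smallest p-values belonged to genes higher in Jiaji, most of them faint. Cpa4, Kalrn, Zfp384, Fstl4 and Marveld2 had differences of 0.82, 2.17, 0.62, 0.56 and 0.88 without overlap, all at adjusted p = 0.179. Of these, Zfp384, at a mean level of -1.45 over the arrays, was in the second brightest of the 4 classes and was not faint, and Fstl4 was at -2.51. Kalrn was well above background on 3 Jiaji and 0 Neiguan arrays and was at least 2.24-fold higher in Jiaji. Lingo2, a leucine-rich repeat protein of neurons, was at -4.54, -5.02, -4.96 and -4.88 in Jiaji and not well above background in Neiguan, at least 2.41-fold higher in Jiaji. It passed the threshold when only the 8 arrays were fitted, and so did Ccdc196, Lhx9, Or4k51, Ucp1 and Vom1r43. The levels of these 6 genes are far below the 75th percentile, in the brightness class whose median moved from 0.24 to 0.01 with quantile normalization. Ccr4, a T cell chemokine receptor gene, had -5.29, -4.85, -5.07 and -3.80 in Jiaji against -7.76, -7.94, -7.74 and -5.52 in Neiguan, a difference of 2.49 (adjusted p = 0.215). Ccr4 and Ucp1 were each well above background on 4 Jiaji arrays and 1 Neiguan array, and Cpa4 on 4 Jiaji and 2 Neiguan arrays. Of 16 lymphocyte markers, 15 had a difference above 0 with a median of 0.24 (0.0021 to 0.48 under the other settings), and 0 passed unadjusted. The adipocyte list had the highest median, 0.43 over 7 genes (0.10 to 0.59 under the other settings), from faint genes such as Ucp1, the heat-producing carrier of brown fat, at 1.06.

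Alb, the albumin gene of the liver, had the largest difference of the genes named here. Its levels were -6.57, -6.94, -6.48 and -7.91 in Jiaji against 1.47, -4.69, -3.07 and -4.02 in Neiguan, without overlap. It was well above background on 0 Jiaji and 4 Neiguan arrays, and it was at least 11.8-fold lower in Jiaji (fitted difference -4.40 ± 1.17, SE; adjusted p = 0.233). Neiguan replicate 1 stood far above the other Neiguan arrays: without it Alb was at least 4.65-fold lower, and without Neiguan replicate 2, the lowest, at least 19.3-fold lower. With normexp and quantile normalization the fitted difference was -1.93. As scaled here, IRI and sham hearts averaged -6.65 and -8.15. Over the 8 tested liver plasma protein genes, Alb included, the median was -0.25. At unadjusted p under 0.05, 2 were higher (25%, beside 8.33% of all genes) and 1, Alb itself, was lower (12.5%, beside 3.34%).

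Autophagy genes had 3 of 20 members higher at unadjusted p under 0.05 (15%, beside 8.33% of all genes). They were Becn1, which starts the autophagosome (0.59, adjusted p = 0.398), Atg12, which extends it (0.49, adjusted p = 0.398), and the lysosomal Lamp1 (0.39, adjusted p = 0.412). Against IRI, Becn1 stood at -0.11 in Jiaji and -0.70 in Neiguan, neither past the threshold.

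The difference between the acupoints was also compared between the sexes. The interaction passed for 0 of 12894 genes (percent called 0; 566 genes, 4.39%, at unadjusted p under 0.05; smallest adjusted p = 0.566), and the Jiaji to Neiguan difference passed for 0 genes within females and 0 within males. The glutathione transferase genes Gsta1, Gsta3 and Gsta5, which detoxify oxidised lipids, had interactions of 2.11, 1.83 and 1.39. Gsta1 lay at 3.06 to 3.23 in Jiaji females and 1.70 to 2.24 in Jiaji males, against 0.83 to 1.90 in Neiguan females and 2.15 to 2.45 in Neiguan males. In IRI, Gsta1 lay at 2.29 to 2.56 in females and 0.78 to 1.12 in males, so higher levels in females were not particular to Jiaji. Sham hearts had 1.80 to 2.18 in females and 1.58 to 2.04 in males. The brain-type creatine kinase gene Ckb had -1.34, from -1.07 in females and 0.27 in males.

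Each acupoint group was also set against IRI hearts. Jiaji differed from IRI for 1312 of 12894 genes (10.2%), with 1081 higher (8.38%) and 231 lower (1.79%), and Neiguan for 725 (5.62%), with 568 higher (4.41%) and 157 lower (1.22%), where both comparisons share the 4 IRI arrays. After quantile normalization the counts were 744 higher and 635 lower for Jiaji and 563 higher and 318 lower for Neiguan. As 0 of 12894 genes were called between Jiaji and Neiguan, none of the 1312 and none of the 725 could be. Their differences between the acupoints reached 2.49 and 4.40 in size. The larger number for Jiaji is not a test of a difference between the acupoints, and these slides were scanned on another day than the IRI slide. For Hbb-bs, Jiaji stood at -1.47 against IRI (adjusted p = 0.00743) and Neiguan at -0.35 (adjusted p = 0.605).

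Among the panel of 55 tested injury, stress, metabolic and clock genes, 0 were called and the median was -0.11. At unadjusted p under 0.05, 9 were lower and 0 higher, beside 3.34% lower and 8.33% higher of all genes. The 95% interval lay within plus or minus 1 for 28 of the 55 panel genes, and their smallest adjusted p was 0.309. Over the 43 lists, 0 held a called gene, 14 held no gene at unadjusted p under 0.05, and medians ran from -0.72 to 0.43.

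**Figure D5:**
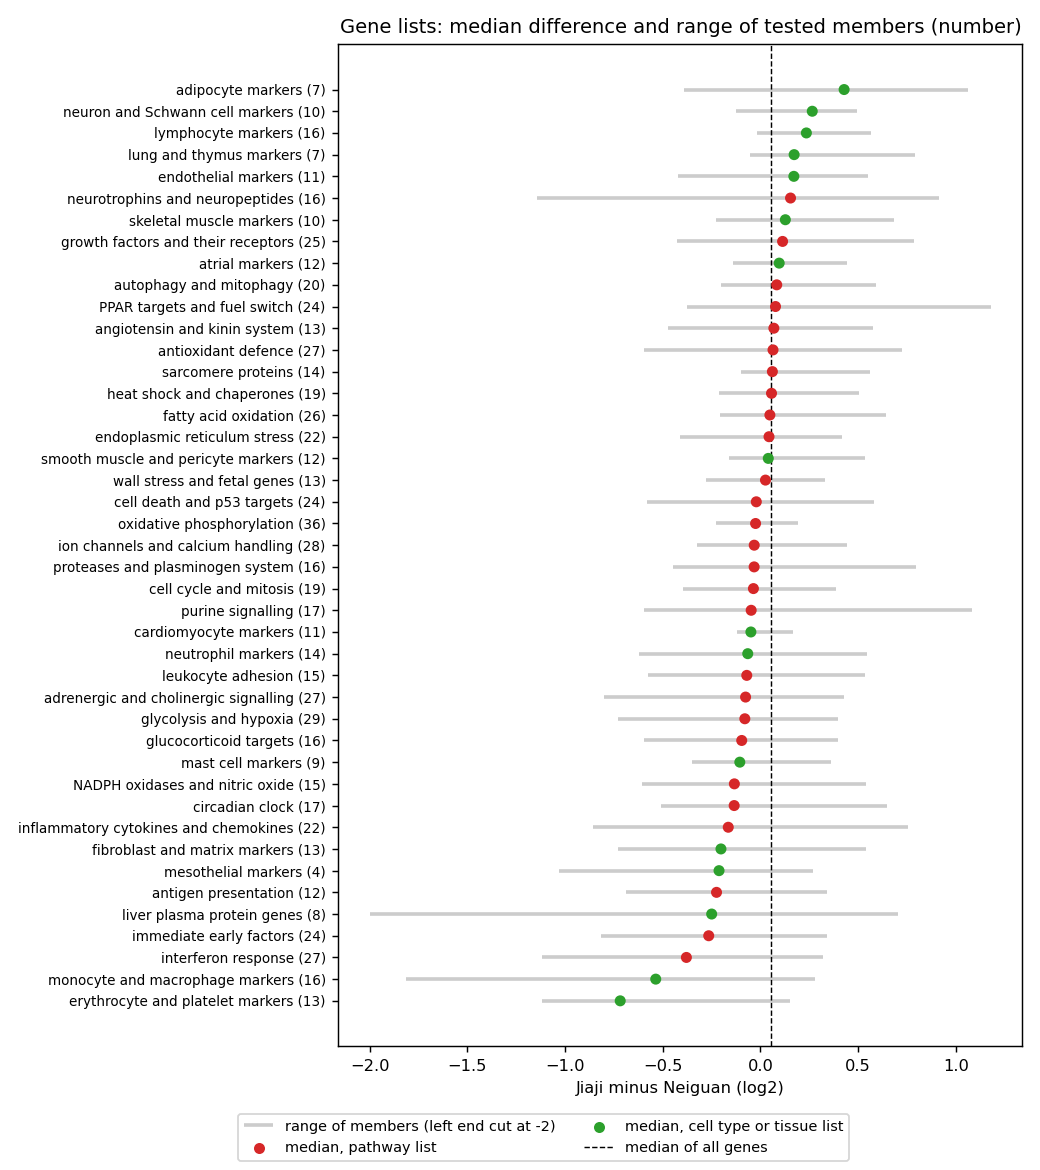
Median (points) and range (bars, left end cut at -2) of the Jiaji minus Neiguan difference (log2) over the tested members of 43 gene lists, with the number of members in brackets and the median of all genes as a dashed line. Red cell and macrophage lists lie lowest at -0.72 and -0.54 and the adipocyte list highest at 0.43.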

How the data were processed

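Myocardial RNA of 24 rats was labelled with Cy3 and hybridised to single-colour Agilent arrays, per the labels' protocols. The deposited scanner files hold spot intensity values, background-subtracted by Agilent Feature Extraction 11.0.1.1 per the file headers, while version 10.7.3.1 stands in the submitters' processing notes. Flags per spot (other values) came from the same program, per the file headers. The authors' deposited table holds log2 values with a median of 7.21 per array and equal quartiles, following the log2 processed intensity (r of 0.997 to 1.000), so it was taken as quantile normalized without centring; its tool is not stated in these sources. Columns of other samples numbered 0.

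Control spots (1377 per array) and 8733 outlier spots over all arrays were left out, 0 were saturated, and 42877 spots per array gave 30367 probes. Accessions matched a RefSeq gene table (GRCr8) for 18005 probes (59.3%) and 15168 genes; 12362 probes stayed unnamed. The filter kept a probe if 1 group or more had it well above background on every array, and the brightest passing probe stood for its gene, which left 12894 genes. The intensity was divided by the array's 75th percentile and put on a log2 scale. R 4.3.3 with limma 3.58.1 fitted group and sex over all 24 arrays (17 residual degrees of freedom), two-sided, with p-values adjusted by Benjamini-Hochberg across 12894 genes (threshold 0.05). The interaction with sex came from 12 group-by-sex means. A gene well above background on 0 arrays of a group has only a bound, computed against the lowest well-measured signal of each array. Fits were tested on simulated data.

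The genes and lists (43 lists, 799 genes, 709 tested) and the comparison itself were chosen with earlier results of these data known, and lists are described without a test. The rule for named genes took called genes of largest difference, called list members, interaction genes and a panel of 57 genes, of which 2 had no named passing probe. As 0 genes were called, only the panel qualified, and every other gene named here was chosen after its values were seen. Some genes, which differed in either direction, are not reported here. For normexp (offset 50) median spot signals were taken, because the files used here hold no mean signal. Alternatives changed the scaling, background, filter, samples, covariates and probes, and left out each Jiaji and Neiguan array. Slide, taken from the shared scan time, could not be fitted as a block, as each of these slides holds 1 group. Replicate numbers are positions on the slide; the deviations of same-numbered arrays correlated at 0.13, -0.09, -0.16 and 0.19, so they were not taken as pairs.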

Additional observations from a re-analysis of the deposited data

Results flagged for a closer look

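In 154 groups of 4 arrays (77 genes in Jiaji and in Neiguan), 7 had 1 array far from the other 3, with a gap beyond Dixon's critical value, where chance flags about 1 in 20 groups. In Jiaji, Il18 was -1.35 in replicate 4 against -2.25 or lower in the others, and Per3 was 0.80 in replicate 1 against 0.35 or lower. In Neiguan, Per3 was 1.06 in replicate 1 against 0.53 or lower, Slc16a3 was 0.0560 in replicate 3 against 0.45 or higher, and Jund was 4.39 in replicate 2 against 4.90 or higher. Ccr4 was -5.52 in Neiguan replicate 4 against -7.74 or lower, and Atg12 was -0.52 in Neiguan replicate 2 against -1.14 or lower.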

How the results depend on the processing

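Fewer arrays or other probes changed the count of 0 called genes in 5 settings. The fit of only the 8 Jiaji and Neiguan arrays called 6 genes, the fit without the Yanglingquan arrays 1 (Lhx9), and the fit with a replicate block, run without the sex term on the 8 arrays, 3 (Ccr4, Lingo2 and Or8g4). Testing every passing probe, an alternative added after seeing the data, called 1 of 25149, an unnamed probe with a difference of 0.99 (limma adjusted p = 0.00658). Leaving out 1 array called between 0 and 1 gene, the 1 being Olr1564 without Jiaji replicate 1, where the unadjusted count was 774; the unadjusted counts ranged from 774 to 2027. Quantile normalization, median scaling, normexp, the authors' values, both filters, no sex term, the mean over probes and kept outlier spots called 0. The cause was not tested.

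Of 1530 values of 77 single genes under other settings, 1499 kept direction and side of the threshold, 6 newly passed it and 25, in 7 genes, turned sign. Median scaling moved each of the 77 differences by -0.14, so a sign turned by it says nothing of the gene. Equally, a difference between 0 and 0.14 as scaled here has no settled sign. Socs3 was -0.0646 with quantile normalization, -0.0992 with median scaling, -0.0303 with normexp and -0.0614 with the authors' values. Il10 was -0.102, -0.0875, -0.0296 and -0.0999 under the same settings. Ntrk2 and Myh7 were -0.109 and -0.0903 with median scaling, and Per1 was -0.000485 with quantile normalization and -0.0204 with normexp. Leaving out 1 array in turn gave ranges of -0.0421 to 0.148 for Socs3, -0.0977 to 0.162 for Il10, -0.0836 to 0.102 for Ntrk2, -0.0594 to 0.154 for Myh7, -0.685 to 0.144 for Il6 and -0.608 to 0.319 for Nppa. Of 860 list medians, 60 moved beyond the spread between arrays. With 4 arrays a group, the 95% interval reached 0.37 to each side of the estimate for the median gene, and levels near background carry little information.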

Other observations

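Further groups held a few genes at unadjusted p under 0.05, all short of the adjusted threshold. The matrix genes Col1a1 (collagen) and Fn1 (fibronectin) had differences of -0.59 and -0.73, and Lum (lumican) 0.54. The growth factor genes Hgf and Hbegf had 0.78 and 0.50. In the angiotensin and kinin list, the bradykinin receptor gene Bdkrb2 had 0.39 and the endothelin-converting enzyme gene Ece1 -0.47. The necroptosis kinase gene Ripk3 had -0.58 and the nuclear receptor genes Ppara and Ppard -0.38 and -0.31. These genes were picked after their values were seen.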
